A study of Mus musculus with 4 samples.

Results

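Brain-derived neurotrophic factor, its receptors and the CREB genes that control it were followed in mouse hippocampus. The 9 genes were Bdnf, Ntf3, Ntrk2, Ntrk3, Ngfr, Sort1, Sorcs1, Creb1 and Crtc1, chosen by name, and all 9 were present among the 16149 genes measured. All 9 passed the filter on low values, which left 15708 genes to test, and they were covered by 21 deposited RefSeq transcripts. Total RNA of the hippocampus was sequenced in 4 libraries. The WT-WD libraries (n = 2) came from wild-type mice and the KO-WD libraries (n = 2) from Tas1r3 knockout mice, in which a subunit of the sweet and umami taste receptor is targeted. Both groups were fed a western diet for 18 weeks, so the comparison is of genotype on 1 diet. Strain, sex, age and the design of the knockout allele are not given in the labels. Nothing in the labels ties the replicates to separate animals; if they share one, the p-values below reflect technical spread alone.

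Neurotrophins are secreted growth factors that neurons make as precursors and release, in part, with activity. BDNF acts mainly through the receptor tyrosine kinase TrkB (Ntrk2) and NT-3 (Ntf3) through TrkC (Ntrk3), while the p75 receptor (Ngfr) together with sortilin (Sort1) binds the precursors. In the hippocampus BDNF is known for its part in synaptic plasticity and memory, and its gene is a target of the transcription factor CREB (Creb1) and the coactivator CRTC1. Trk receptors also exist as truncated forms without the kinase, and truncated TrkB is the main form in astrocytes.

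Estimated depth was 11584774 to 15944160 reads per library, and 1 read was worth 0.188 to 0.258 units of the deposited signal. Tas1r3 had 16.1 and 15.9 units in WT-WD and 0.887 and 1.85 units in KO-WD, a log2 difference of -2.88 ± 0.34 (SE, limma, adjusted p = 0.0817). Over all genes, limma called 10 of 15708 at an adjusted p under 0.05 (0.0637%). Of the genes tested, 829 (5.28%) had an unadjusted p under 0.05, and in 36.3% the 2 genotypes did not overlap. Marker genes of neurons summed to 19473.5 and 19601 units in WT-WD and 18490 and 19197 units in KO-WD. Sums of hippocampal excitatory markers were 3600 and 3714 units in WT-WD and 3399 and 3736 units in KO-WD. The excitatory sums overlapped between genotypes. In KO-WD 9 of 12 neuron markers were lower and 9 of 12 hippocampal excitatory markers higher by mean, and no marker of either list was under 3 reads in all libraries. All 12 oligodendrocyte markers were lower by mean in KO-WD, with sums of 100801 and 115061 units against 93602 and 84047 units. Of 12 astrocyte markers 10 were lower (12241 and 12931 units against 11646 and 11689 units), as were 6 of 8 oligodendrocyte precursor markers and 9 of 10 microglial ones. All 12 choroid plexus markers were higher by mean in KO-WD, at 3696 and 1495 units against 7356 and 3752 units. Endothelial (6 of 8), mural (7 of 8), meningeal (7 of 8) and ependymal (5 of 8) markers were more often lower, and 6 of 8 markers of thalamus and striatum were higher. No marker of the 12 lists was called, and the part of these lists in the results on the neurotrophin genes was not tested. In bulk tissue, fewer cells of a type and less RNA per cell cannot be told apart.

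The sequences below are where the deposited receptor transcripts part, since these bases decide whether the receptor carries a kinase. They are from GENCODE transcripts on GRCm38, written 5′ to 3′ in the sense of the gene. Lower case marks the last 40 coding bases of the shared exon 12, and capitals mark the first coding bases of the exon that follows. The capitals lie at chr13:58985802-58985839 (+) and chr13:58932023-58932060 (+) for Ntrk2, and at chr7:78260355-78260414 (-) and chr7:78304367-78304426 (-) for Ntrk3, the full-length form first in each case.
Ntrk2 full-length (NM_001025074): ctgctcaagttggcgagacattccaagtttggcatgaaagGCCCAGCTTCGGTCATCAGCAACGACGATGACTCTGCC
Ntrk2 truncated (NM_008745): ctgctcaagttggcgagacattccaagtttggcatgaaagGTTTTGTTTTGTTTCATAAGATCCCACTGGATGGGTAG
Ntrk3 full-length (NM_008746): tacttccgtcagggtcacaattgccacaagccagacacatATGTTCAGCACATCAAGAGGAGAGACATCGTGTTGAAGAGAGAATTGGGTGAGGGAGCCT
Ntrk3 truncated (NM_182809): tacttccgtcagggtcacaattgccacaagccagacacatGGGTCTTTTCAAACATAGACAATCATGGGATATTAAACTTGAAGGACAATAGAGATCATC
The truncated Ntrk2 transcript adds 38 bases up to and including its stop codon and encodes 476 codons, while the full-length form goes on for 1073 bases and encodes 821 codons. The truncated Ntrk3 transcript adds 254 bases and encodes 612 codons, against 893 bases and 825 codons in the full-length form.

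No member differed between the genotypes past the threshold. Of the 9 members, 0 were called by limma at an adjusted p under 0.05, where 0.0637% of all genes were, and 0 had an unadjusted p under 0.05. By mean log2 value 4 members were higher and 5 lower in KO-WD, where 50.1% of all genes were higher. The median log2 difference of the members was -0.015 (0.11 without KO-WD replicate 1), beside 0.00024 over all genes, and their median absolute difference was 0.12, beside 0.15. The genotypes did not overlap in 3 members (Ntf3, Ntrk3 and Crtc1), all higher in KO-WD. This count of 3 in 9 lies near the background of 36.3%, in which both KO-WD libraries were above both WT-WD libraries in 17.9% of all genes and below them in 18.4%. All log2 differences are KO-WD minus WT-WD on the log2(value + 1) scale, and p-values of genes and transcripts are limma's.

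Per length of transcript, Ntrk2 had the highest level of the 9 genes and Ngfr the lowest. Each transcript's signal was divided by its length in GENCODE, which may differ from the models the authors used. Ntrk2 was at 372 units per kilobase (range 361 to 385 over the 4 libraries), Sort1 at 211 (204 to 224), Crtc1 at 151 (142 to 167) and Ntrk3 at 37.1 (35.3 to 37.7). Creb1 was at 25.7 units per kilobase (20.7 to 33.2), Bdnf at 18.6 (16.8 to 20.7), Ntf3 at 12.2 (8.80 to 17.9), Sorcs1 at 3.63 (2.67 to 4.47, from the 2 transcripts with a length) and Ngfr at 2.90 (2.30 to 3.47). The Creb1 level, and with it the rank of Creb1, leans on the short GENCODE model of NM_001037726. That model has 1287 bases, against 5009 for NM_009952 and 8364 for NM_133828. The ranges of Creb1 and Bdnf met at 20.7, and those of Bdnf and Ntf3 and of Sorcs1 and Ngfr overlapped. Compared within each library, Creb1 was above Bdnf and Sorcs1 above Ngfr every time. Sorcs1 and Ngfr were all but equal in WT-WD replicate 2 (2.670 and 2.666). The Sorcs1 form without a length (NM_001360457), left out here, held 50.7% of the gene's signal in that library. It held 29.9% in WT-WD replicate 1 and 23.3% and 12.3% in KO-WD, so the Sorcs1 level per length is a lower bound. The near-tie and the overlap with Ngfr hold for the other forms alone. Bdnf was above Ntf3 except in KO-WD replicate 1 (16.8 and 17.9), so the order of Bdnf and Ntf3 is not beyond the spread between libraries.

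Bdnf, the ligand of TrkB, was measured at similar levels in both genotypes. Its summed signal was 82.6 and 72.6 units in WT-WD and 67.1 and 73.7 units in KO-WD, with replicate 1 before replicate 2 here and throughout. The genotypes overlapped, and the highest and lowest library differed 1.23-fold. The log2 difference was -0.14 ± 0.15 (SE, adjusted p = 0.929 by limma), with a 95% interval of the fold from 0.712 to 1.16. These values rest on an estimated 303 to 387 reads per library.

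Bdnf is transcribed from many promoters, each with its own leader exon spliced to a common coding exon. The tables held 5 of the 12 curated Bdnf transcripts in RefSeq. All 5 share a last exon of 3626 bases on chromosome 2, so only their leader exons of 81 to 640 bases tell them apart. The form with the exon VI leader (NM_001048142, 249 codons) was the leading form in every library, at 51.5 and 35.9 units in WT-WD and 39.2 and 51.3 units in KO-WD. The form with the exon IV leader (NM_001048141), whose promoter is known for its response to neuronal activity, was at 16.5 and 21.8 units in WT-WD and 12.4 and 17.4 units in KO-WD. The genotypes overlapped in both forms.

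The share of the exon VI form in the Bdnf signal was 62.4% and 49.4% in WT-WD (55.9% ± 9.21, SD, n = 2) and 58.4% and 69.6% in KO-WD (64.0% ± 7.96, SD, n = 2). The difference of 8.10 percentage points was smaller than the pooled SD of 8.61 points (exact two-sided permutation test, p = 0.667, where 2 against 2 libraries cannot go below 0.333). It ranged from 1.59 points without WT-WD replicate 2 to 14.6 points without WT-WD replicate 1. In KO-WD replicate 2 the exon II and exon V forms, described below, held 0.0043% and 0.0025% of the signal. Without that library the difference in the exon VI share was 2.47 points. The exon IV form had 20.0% and 30.0% of the signal in WT-WD and 18.4% and 23.5% in KO-WD. The 2 leading forms took the same order in every library, and their shares overlapped between genotypes.

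The 3 minor Bdnf forms were each below 10 units in every library. The exon I form (NM_007540), which starts translation upstream and encodes 257 codons, was at 5.80 and 3.60 units in WT-WD and 5.67 and 5.02 units in KO-WD. The exon II form (NM_001285416) was at 6.58, 3.09 and 7.74 units in WT-WD replicates 1 and 2 and KO-WD replicate 1, and the exon V form (NM_001285422), with a leader of 81 bases, at 2.13, 8.27 and 2.17 units. In KO-WD replicate 2 both were far under the 3-read floor of 0.695 units. Estimated depth was 12929445 reads there. The part of depth, and how the authors' quantification assigned reads among the Bdnf forms, were not tested. The limma p-values of these forms were 0.730, 0.480 and 0.140 before adjustment.

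Promoters of the Bdnf forms are shown because CREB is a known regulator of the gene. RefSeq promoter windows (GRCm38.p6) began at the starts of 3 of the 5 deposited forms. The 120 bases before each start are given below, at chr2:109674580-109674699 (+), chr2:109692316-109692435 (+) and chr2:109692907-109693026 (+) in that order. Capitals mark the short CRE motif TGACG or its reverse complement CGTCA.
Bdnf exon I promoter (NM_007540): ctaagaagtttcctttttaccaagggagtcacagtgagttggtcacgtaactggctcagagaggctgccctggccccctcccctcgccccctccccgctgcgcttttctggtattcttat
Bdnf exon IV promoter (NM_001048141): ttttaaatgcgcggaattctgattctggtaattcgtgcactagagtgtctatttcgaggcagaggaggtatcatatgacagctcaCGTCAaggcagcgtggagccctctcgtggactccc
Bdnf exon V promoter (NM_001285422): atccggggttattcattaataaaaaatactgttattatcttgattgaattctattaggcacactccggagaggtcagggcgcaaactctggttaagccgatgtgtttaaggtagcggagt
In the 250 bases before the start, searched on both strands, the short motif was found in the exon IV window alone of these 3, at 35 bases before the start. Of all 32851 windows 17.8% held it, and 1.55% held the full site TGACGTCA, which contains the short motif and was found in none of the 3. A match is a description of the letters and no evidence of binding.

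Ntf3, which encodes NT-3, had the largest difference of the members. Its signal was 13.6 and 11.8 units in WT-WD and 24.0 and 16.1 units in KO-WD. Both KO-WD libraries were above both WT-WD libraries, with KO-WD replicate 1 standing highest. The log2 difference was 0.59 ± 0.27 (SE, unadjusted p = 0.0621, adjusted p = 0.902 by limma), and the 95% interval of the fold ran from 0.973 to 2.34. An estimated 52.7 to 108 reads per library lie behind these values, all from the transcript NM_001164035. Without KO-WD replicate 1 the log2 difference was 0.32.

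**Figure D1:**
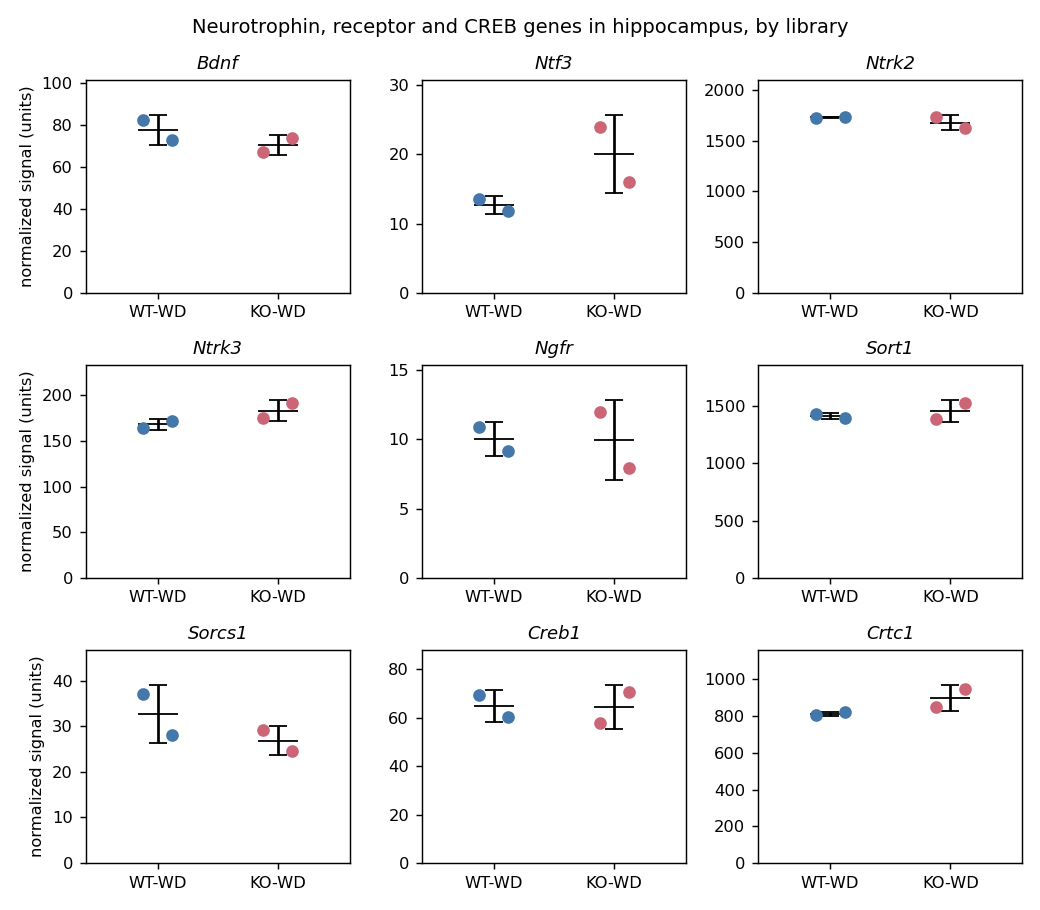
Normalized signal in units (vertical axes, from 0) of the 9 genes in the WT-WD and KO-WD libraries. Points are libraries, bars the mean ± SD of n = 2; the genotypes do not overlap in Ntf3, Ntrk3 and Crtc1.

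Ntrk2, which encodes TrkB, varied least among the members. Its summed signal was 1727 and 1738 units in WT-WD and 1732 and 1628 units in KO-WD. The genotypes overlapped, and the highest library exceeded the lowest 1.07-fold. The log2 difference was -0.045 ± 0.10 (SE, adjusted p = 0.973 by limma), with a 95% interval of the fold from 0.817 to 1.15.

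The 3 Ntrk2 transcripts were all abundant. The full-length transcript NM_001025074 was at 838 and 729 units in WT-WD and 773 and 663 units in KO-WD. A second full-length transcript with the same 821 codons, NM_001282961, was at 229.6 and 251 units in WT-WD and 242 and 218 units in KO-WD. The truncated transcript NM_008745 was at 659.5 and 758 units in WT-WD and 717 and 747 units in KO-WD. In none of the 3 did the genotypes separate. Only 70 exonic bases in GENCODE belong to NM_001282961 alone, against 4322 to NM_001025074 and 1098 to NM_008745. How the authors' quantification split reads between the 2 full-length transcripts was not tested.

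The truncated share of the Ntrk2 signal was 38.2% and 43.6% in WT-WD (40.9% ± 3.82, SD, n = 2) and 41.4% and 45.9% in KO-WD (43.6% ± 3.17, SD, n = 2). The difference of 2.75 percentage points was smaller than the pooled SD of 3.51 points (exact two-sided permutation test, p = 0.667). The log2 ratio of full-length to truncated signal was 0.70 and 0.37 in WT-WD and 0.50 and 0.24 in KO-WD, a difference of -0.16 (exact two-sided permutation test, p = 0.667). The libraries of the 2 genotypes alternated in the order of their shares. Which form led depended on the scale, because the truncated transcript is shorter (3049 bases against 8744 and 4706 bases). Divided by these GENCODE lengths, the truncated share became 59.9% and 64.5% in WT-WD and 62.7% and 66.7% in KO-WD (exact two-sided permutation test, p = 0.667).

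Ntrk3, which encodes TrkC, was at 164 and 172 units in WT-WD and 175 and 191 units in KO-WD. Both KO-WD libraries were above both WT-WD libraries, by little. The log2 difference was 0.12 ± 0.12 (SE, adjusted p = 0.924 by limma), and 0.057 without KO-WD replicate 2. The truncated transcript NM_182809 was at 135 and 144 units in WT-WD and 143 and 139.6 units in KO-WD, overlapping between genotypes. The full-length transcript NM_008746 was at 29.2 and 28.4 units in WT-WD and 32.1 and 51.6 units in KO-WD. Here KO-WD replicate 2 stood apart and the other 3 libraries lay close together.

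The truncated share of Ntrk3 was 82.2% and 83.5% in WT-WD (82.8% ± 0.974, SD, n = 2) and 81.7% and 73.0% in KO-WD (77.3% ± 6.13, SD, n = 2). The difference of -5.51 percentage points had the smallest p that 2 against 2 libraries allow (exact two-sided permutation test, p = 0.333), and without KO-WD replicate 2 it was -1.18 points. Per GENCODE length the truncated share was 95.8% and 96.2% in WT-WD and 95.7% and 93.1% in KO-WD, so truncated TrkC led on both scales in every library. The GENCODE lengths are 3977 bases for the truncated form and 19703 bases for the full-length form, whose model extends past the RefSeq one, so the per-length share would be lower with a shorter full-length model.

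Ngfr, the p75 receptor, was the member with the lowest signal, at 10.9 and 9.19 units in WT-WD and 11.97 and 7.91 units in KO-WD. The KO-WD libraries lay on either side of the WT-WD ones. The log2 difference was -0.035 ± 0.30 (SE, adjusted p = 0.995 by limma). The 95% interval of the fold ran from 0.598 to 1.59, so with n = 2 per genotype changes within it could not be told from none. An estimated 34.2 to 54.0 reads per library lie behind these values.

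Sort1, sortilin, which sorts BDNF in the secretory pathway and binds proneurotrophins with p75, was at 1431 and 1397 units in WT-WD and 1392 and 1524 units in KO-WD. The genotypes overlapped, with a log2 difference of 0.043 ± 0.11 (SE, adjusted p = 0.975 by limma). Its 2 transcripts differ by an exon of 99 bases (33 codons) at chr3:108355472-108355570 (+), shown in capitals between the 20 coding bases before and after it.
Sort1 exon of NM_001271599: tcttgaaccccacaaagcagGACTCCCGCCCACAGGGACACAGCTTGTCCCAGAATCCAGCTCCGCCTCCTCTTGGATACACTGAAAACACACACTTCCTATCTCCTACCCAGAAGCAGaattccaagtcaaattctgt
The form with this exon was at 597 and 624 units in WT-WD and 543 and 694 units in KO-WD. It made up 41.7% and 44.7% of the Sort1 signal in WT-WD and 39.0% and 45.5% in KO-WD. The KO-WD shares lay on either side of the WT-WD shares. Only 108 exonic bases belong to this form alone and 68 to the other alone, and reads across the skipped exon also tell the 2 forms apart.

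Sorcs1, a sortilin relative of the same receptor family, was at 37.1 and 28.2 units in WT-WD and 29.1 and 24.5 units in KO-WD. The genotypes overlapped, with a log2 difference of -0.27 ± 0.22 (SE, adjusted p = 0.911 by limma), which was -0.073 without WT-WD replicate 1, while leaving out WT-WD replicate 2 gave -0.46. Of its 3 transcripts, NM_001360457 was at 11.1 and 14.3 units in WT-WD and 6.79 and 3.02 units in KO-WD, without overlap (log2 difference -1.28 ± 0.52, SE, adjusted p = 0.883 by limma). The transcript NM_021377 was at 16.8 and 5.62 units in WT-WD and 9.64 and 20.3 units in KO-WD. The transcript NM_001252501 was at 9.20 and 8.25 units in WT-WD and 12.7 and 1.19 units in KO-WD. Within KO-WD, and for NM_021377 also within WT-WD, these forms spread more than 2-fold. Over all 4 libraries the sum over forms was steadier than any of them. Within WT-WD alone, NM_001252501 and NM_001360457 were steadier than the sum.

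Creb1, which encodes CREB, was at 69.5 and 60.2 units in WT-WD and 57.9 and 70.7 units in KO-WD. The genotypes overlapped, with a log2 difference of -0.015 ± 0.17 (SE, adjusted p = 0.995 by limma). Its 3 transcripts encode 341 codons (NM_009952, the alpha form), 327 codons (NM_133828, the delta form) and 287 codons (NM_001037726). The alpha form has an exon of 42 bases that both others lack, at chr1:64559727-64559768 (+), shown in capitals between the 20 coding bases before and after it.
Creb1 exon of NM_009952: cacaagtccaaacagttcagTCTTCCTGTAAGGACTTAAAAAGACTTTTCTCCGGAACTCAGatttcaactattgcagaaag
The shortest form also lacks an exon of 114 bases at chr1:64550857-64550970 (+).

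The libraries separated by genotype in each of the 3 Creb1 forms, while their sum overlapped between genotypes. Such separation was found in 35% of all transcripts, and the 3 forms share the signal of 1 gene and are not independent. NM_001037726 was at 36.5 and 26.0 units in WT-WD and 18.9 and 20.2 units in KO-WD. NM_009952 was at 11.8 and 13.4 units in WT-WD and 16.8 and 19.0 units in KO-WD, and NM_133828 at 21.3 and 20.8 units against 22.2 and 31.5 units. The shortest form was lower and the other 2 forms higher in both KO-WD libraries. The share of NM_001037726 was 52.5% and 43.2% in WT-WD (47.9% ± 6.53, SD, n = 2) and 32.7% and 28.6% in KO-WD (30.7% ± 2.88, SD, n = 2).

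None of these Creb1 differences passed a test. The difference in the share of NM_001037726 was -17.2 percentage points (exact two-sided permutation test, p = 0.333, the smallest possible). Its log2 difference was -0.63 ± 0.30 (SE, adjusted p = 0.909 by limma). In limma's test of transcript usage it had an unadjusted p of 0.00576 and an adjusted p of 0.210, and NM_009952 had 0.0492 and 0.478. In that test 10.4% of 19889 transcripts had an unadjusted p under 0.05 and 0.573% were called. With limma on the log2 ratio of a transcript to the rest of its gene, NM_001037726 had an unadjusted p of 0.0809 and an adjusted p of 0.943, and in that fit 0 of 19889 transcripts were called and 5.19% had an unadjusted p under 0.05. Only 12 exonic bases belong to NM_001037726 alone, and 42 to NM_009952 alone, against 3291 to NM_133828. Reads across the skipped exon also tell the short form apart, and how the authors' quantification assigned reads among the forms was not tested.

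**Figure D2:**
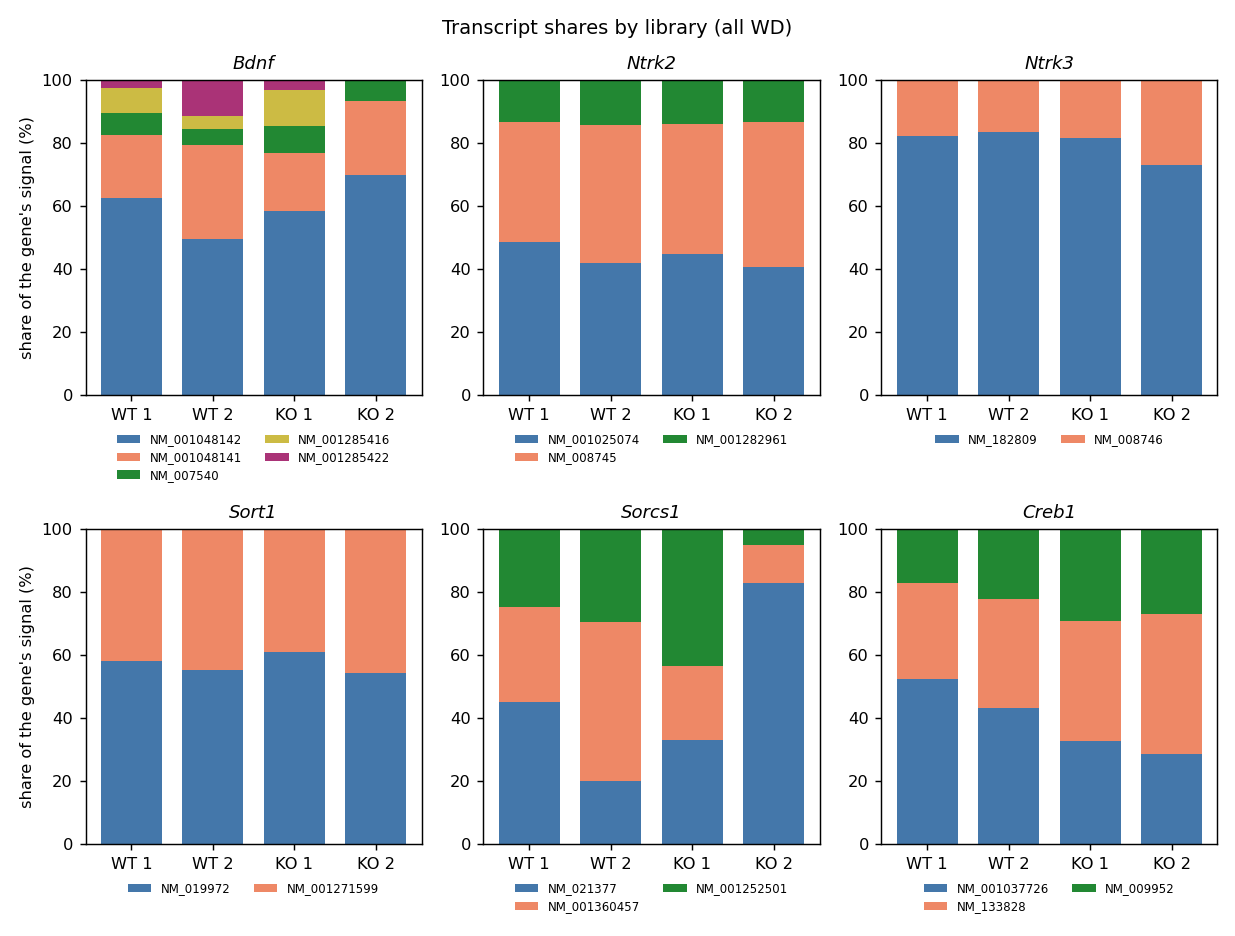
Share of each gene's deposited signal in percent (vertical axes) taken by each transcript in the 4 libraries, for the 6 members with several transcripts. The share of Creb1 NM_001037726 is 52.5% and 43.2% in WT-WD and 32.7% and 28.6% in KO-WD, and the Ntrk2 truncated share (NM_008745) runs from 38.2% to 45.9% with the genotypes overlapping.

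Crtc1, the coactivator that joins CREB after calcium and cAMP signals, was at 806 and 821 units in WT-WD and 848 and 947 units in KO-WD. Both KO-WD libraries were above both WT-WD libraries. The log2 difference was 0.14 ± 0.11 (SE, adjusted p = 0.911 by limma), with a 95% interval of the fold from 0.924 to 1.31. It was 0.060 without KO-WD replicate 2, and leaving out KO-WD replicate 1 gave 0.22.

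Tested one by one, the 21 transcripts gave no call. By limma 0 of the 21 were called and 0 had an unadjusted p under 0.05, where 0 of 29293 transcripts (0%) were called in all and 1668 (5.69%) had an unadjusted p under 0.05. The genotypes did not overlap in 7 of the 21, beside 35% of all transcripts, with 5 higher and 2 lower in KO-WD. In the test of usage per gene, 0 of the 6 members with several transcripts were called, where 1.29% of 6295 genes were. The smallest adjusted p was 0.208, for Creb1, and those of Bdnf, Ntrk2 and Ntrk3 were 0.878, 0.857 and 0.634 by limma.

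**Figure D3:**
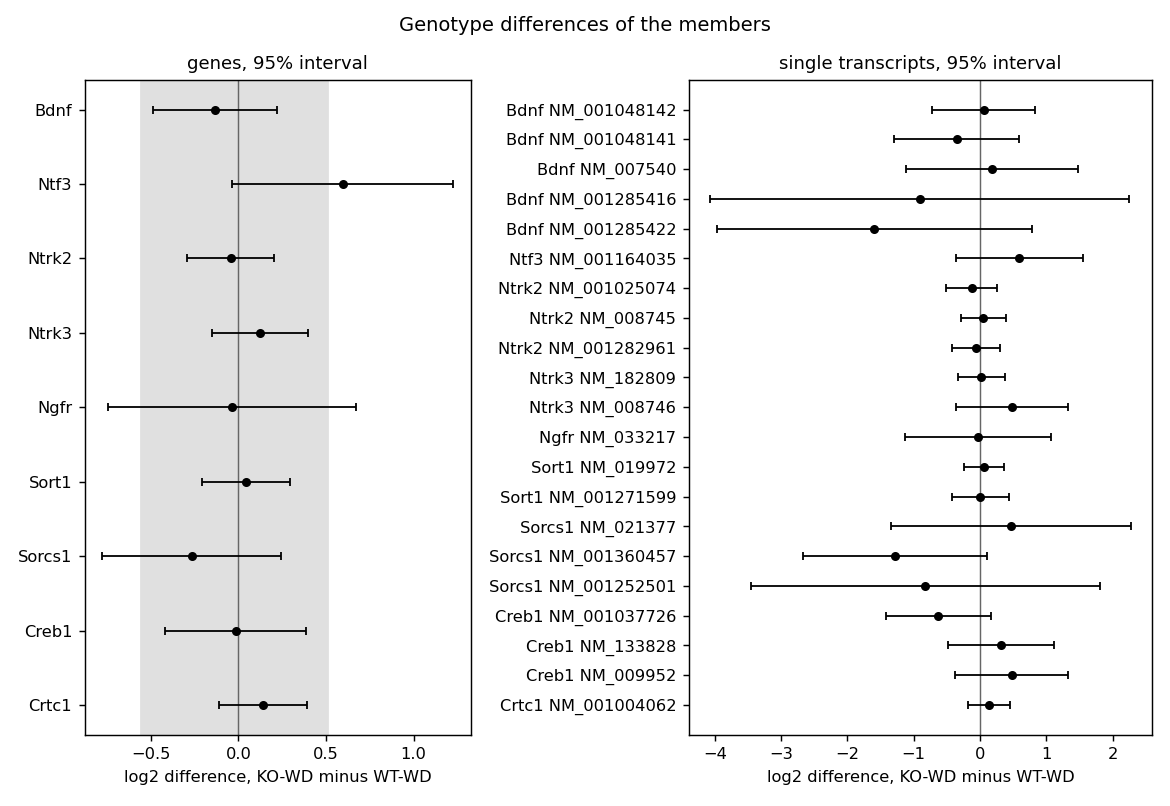
Log2 difference, KO-WD minus WT-WD (horizontal axes), with its 95% limma interval for the 9 genes (left) and their 21 transcripts (right). The grey band on the left spans the 5th to 95th percentile of all 15708 genes, -0.56 to 0.51; every interval includes 0.

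The wider pathway was described by lists of its known genes, 147 tested genes in all beside the members. Of these, 75 were higher and 72 lower by mean in KO-WD, 0 were called by limma (0.0637% of all genes), and 5 (3.40%) had an unadjusted p under 0.05, beside 5.28% of all genes. The genotypes did not overlap in 66 (44.9%), beside 36.3%.

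Among genes that process and sort proneurotrophins, 7 were higher and 12 lower and 0 were called, with a median log2 difference of -0.035 (-0.0035 without WT-WD replicate 1). Hap1, whose protein takes part in carrying BDNF vesicles, was at 344 and 387 units in WT-WD and 429 and 423 units in KO-WD (log2 difference 0.22, adjusted p = 0.902 by limma). Both KO-WD libraries were above both WT-WD libraries. Htt, which encodes huntingtin, a partner of the Hap1 protein, had a log2 difference of 0.25.

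Among Trk adaptors and docking proteins, 18 were higher and 10 lower and 0 were called, with a median of 0.050 (-0.020 without KO-WD replicate 2). The tyrosine kinase gene Abl1 was at 173 and 167 units in WT-WD and 202 and 225 units in KO-WD (log2 difference 0.32, unadjusted p = 0.0266, adjusted p = 0.902 by limma). The ubiquitin ligase gene Nedd4l and the adaptor gene Crkl had log2 differences of 0.28 and 0.34. Among the kinases and small GTPases downstream of Trk, 18 were also higher and 9 lower and 0 were called, with a median of 0.050. Rps6ka2 and Mapk7 had log2 differences of 0.35 and 0.32. Among partners of the p75 receptor, 6 were higher and 12 lower and 0 were called, with a median of -0.074 (-0.14 without KO-WD replicate 1). Bex1, Rhoa and Ndn had the smallest p-values there, with log2 differences of -0.30, -0.30 and -0.18. The median over all genes was 0.00024.

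Of the CREB family, its coactivators and its kinases, 15 were higher and 10 lower and 0 were called, with a median of 0.037 (-0.036 without KO-WD replicate 2). Camkk1, a kinase that activates the calmodulin kinases upstream of CREB, was at 3992 and 4405 units in WT-WD and 6340.5 and 6775 units in KO-WD (log2 difference 0.64, unadjusted p = 0.000860, adjusted p = 0.355 by limma). Of this signal 90.8% came from non-coding transcript models. The coding transcripts alone averaged 467 units in WT-WD and 522 units in KO-WD (log2 difference 0.15, adjusted p = 0.840 by limma on coding transcripts). Sik1, a kinase that restrains CRTC proteins, and Camk2b had log2 differences of -0.65 and 0.21.

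Of the genes known to respond to CREB or BDNF, 11 were higher and 18 lower and 0 were called, with a median of -0.14, which was 0.0062 without WT-WD replicate 2. The transcription factor genes Nr4a2, Fos and Fosb had the smallest p-values. Nr4a2 was at 121 and 103 units in WT-WD and 80.9 and 75.1 units in KO-WD (log2 difference -0.51, unadjusted p = 0.00930, adjusted p = 0.826 by limma). Fos was at 13.7 and 23.1 units against 9.53 and 8.13 units (log2 difference -0.94, unadjusted p = 0.0181, adjusted p = 0.888 by limma). Fosb was at 20.3 and 31.5 units against 13.8 and 17.5 units (log2 difference -0.67, unadjusted p = 0.0431, adjusted p = 0.902 by limma). In all 3, picked for their p-values, both KO-WD libraries were below both WT-WD libraries. That held for 9 of the 29 listed genes and the opposite for 2, beside 18.4% and 17.9% of all genes. Arc, another activity-induced gene, chosen after its values were seen, lay the other way, at 79.9 and 50.8 units in WT-WD and 84.1 and 138 units in KO-WD (log2 difference 0.75, adjusted p = 0.902 by limma).

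**Figure D4:**
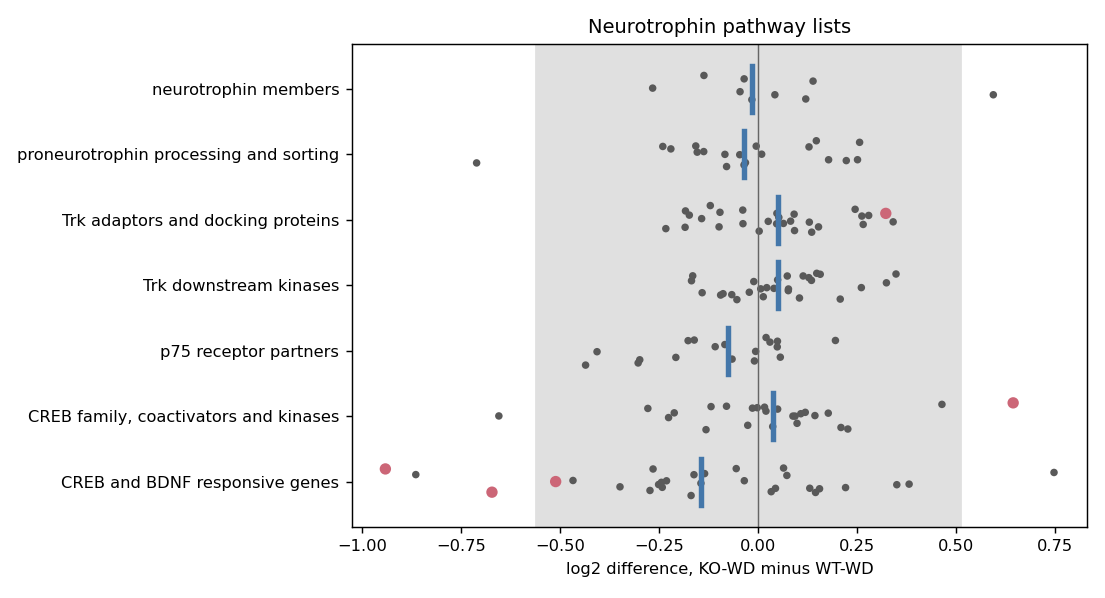
Log2 difference, KO-WD minus WT-WD (horizontal axis), of each tested gene in the members and 6 pathway lists (rows). Large red points have an unadjusted p under 0.05, blue bars are list medians (-0.14 for the responsive genes) and the grey band is the 5th to 95th percentile of all genes, -0.56 to 0.51.

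The genes whose library-to-library pattern lay closest to Bdnf were Hs2st1, Impdh1 and Eif4e, among 4802 genes with a mean within 2-fold. Hs2st1 was at 135, 118, 109.8 and 121 units in the 4 libraries, at a distance of 0.014 in centred log2 values, beside a median distance of 0.34. Closest to Ntrk2 were Hsp90ab1, Cplx1 and Sv2b among 469 genes. Hsp90ab1 was at 3106, 3069, 3158 and 2946 units, at a distance of 0.034, beside a median of 0.21. With 4 libraries such likeness is a description only.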

How the data were processed

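Per the labels' protocols, total RNA of mouse hippocampus was made into libraries with an Ion Total RNA-Seq kit. STAR, Partek and mm39 are named in the submitters' processing notes, with no version. How the signal was normalized, which annotation release served and whether strand was used is not given in the sources used here. The authors deposited, per library, a normalized signal for the same 30108 RefSeq transcripts, scaled to a total near 2.99e+06 units. A constant of 1e-04 was subtracted, and transcripts were summed per symbol; 30077 matched a symbol (RefSeq GRCm38.p6, then GENCODE M21). Depth was estimated from the step of low values. Between 17.0% and 23.5% of transcripts under 20 reads were whole multiples within 0.02 read, so reads were not recovered and no count model was used. The floor of 3 reads covers counting error only.

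Genes and transcripts that reached 1 unit in 2 or more libraries were tested with limma 3.58.1 (R 4.3.3) on log2(value + 1), with trend and robust moderation; genotype was the sole term, which left 2 residual degrees of freedom. P-values are two-sided, with Benjamini-Hochberg adjustment over all genes or transcripts and a threshold of 0.05. Folds on this scale understate changes of low genes. Transcript usage was tested with limma's diffSplice, which on simulated data gave too many small p-values, so a limma test of log2 ratios was added after seeing the data. Shares were compared by exact permutation tests. The most alike libraries still differed beyond counting error over 13463 genes, so none was counted as a duplicate.

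The members and gene lists were chosen with earlier results of these data known. Named are all members, the 3 genes with the smallest p of each pathway list and the 3 genes closest to Bdnf and to Ntrk2; some genes this rule picks are not reported here. Alternatives were pseudocounts, filters, scalings, coding transcripts alone, no trend, a replicate block, shares per length and leaving out each library.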

Additional observations from a re-analysis of the deposited data

How the results depend on the processing

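No member gene or transcript and no pathway gene was called under any alternative run; the lowest adjusted p of a member gene was 0.642, for Ntf3 by limma without KO-WD replicate 2. Over all genes, 10 calls became 1 with coding transcripts alone and 0 without trend and robust moderation (951 genes with an unadjusted limma p under 0.05), and ranged from 18 to 93 with 1 library left out, where a lone library is assumed to vary like the other genotype. Calls of transcript usage went from 114 to 0 with the log2 ratio test and ranged from 0 to 28 with 1 library left out. The causes were not tested. The log2 difference of 3 members changed sign. Ngfr (range -0.31 to 0.24) was positive, at 0.078, when WT-WD replicate 1 was left out and at 0.24 when KO-WD replicate 2 was. Creb1 (range -0.16 to 0.13) was positive, at 0.087, when WT-WD replicate 1 was left out and at 0.13 when KO-WD replicate 1 was. Sort1 (range -0.023 to 0.11) was negative when KO-WD replicate 2 was left out. With 1 library left out the log2 difference ranged from -0.23 to -0.045 for Bdnf and from -0.090 to -0.00039 for Ntrk2, and the difference in truncated Ntrk2 share from 0.0477 to 5.45 percentage points.

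With the replicate number as a block, 47 genes and 11 transcript usages were called. Same-numbered libraries deviated together with r = 0.038 over 15708 genes in only 2 pairs, so the numbers were not taken to pair the libraries.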
